A study of Mus musculus with 3 samples.

Results

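The genes described here sense oxygen and make vascular endothelial growth factors in cap mesenchyme, the nephron progenitor population of the embryonic kidney. They were chosen by name, as the 10 genes Hif1a, Epas1, Arnt, Egln1, Egln2, Egln3, Hif1an, Vhl, Vegfa and Vegfb, out of 18193 genes named on the array. All probe sets with one of these symbols as their only gene were taken, which gave 24 of the 45037 probe sets that are not controls. Of these genes, 8 had several probe sets, and Egln2 and Vegfb had 1 each.

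The study sorted cap mesenchyme by fluorescence from trypsin-treated kidneys of CD-1 mouse embryos at E15.5 (Theiler stage 23) that carried the transgene Tg(Six2-EGFP/cre)1Amc, in which Six2 regulatory sequence drives EGFP and cre. There were 3 arrays in a single group, pools 1 to 3, each from about 5 to 10 kidneys with the sex of the embryos unknown. RNA passed through 2 rounds of amplification. No control group or other cell population was analysed here, so each probe set was compared with the background level of its own array, and differences between pools are given without a test. The labels do not say whether the pools came from separate litters, so p-values speak only for these 3 pools. They rest on the spread between the pools, combined by limma with a variance trend over all probe sets.

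Cells sense oxygen through hypoxia-inducible factor (HIF), a pair of proteins with an oxygen-regulated alpha subunit (HIF1A or EPAS1) and a stable beta subunit (ARNT). When oxygen is ample, prolyl hydroxylases encoded by Egln1, Egln2 and Egln3 mark the alpha subunit, VHL then recruits a ubiquitin ligase that destroys it, and the asparaginyl hydroxylase encoded by Hif1an blocks its coactivators. When oxygen falls, the alpha subunit persists and switches on genes such as Vegfa, whose protein draws blood vessels into the growing kidney. Much of this control acts on the protein, so the transcript levels given here are not levels of HIF activity.

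Transcripts of 9 of the 10 genes were above background, in a set where 54.4% of all named genes passed the same test. The exception was Egln3. A gene passed if any of its probe sets did, which favours genes with several probe sets, as 8 of these 10 have. Above background means an adjusted p under 0.05 in limma's one-sided test against the 95th percentile of signal over 150 probe sets for sensory receptor, hair and defensin genes. That level lay at signals of 197, 186 and 201 in pools 1, 2 and 3. The median of log2 signal over the background level was 3.62 for the 10 genes and 1.20 for all named genes, taking the probe set with the highest mean for each gene. Of the 24 probe sets, 14 passed, against 47.2% of all single-gene probe sets and 41.5% of all probe sets. Probe sets differ in affinity, so signals are not ranked between genes, and a transcript may be present where its signal is low.

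**Figure D1:**
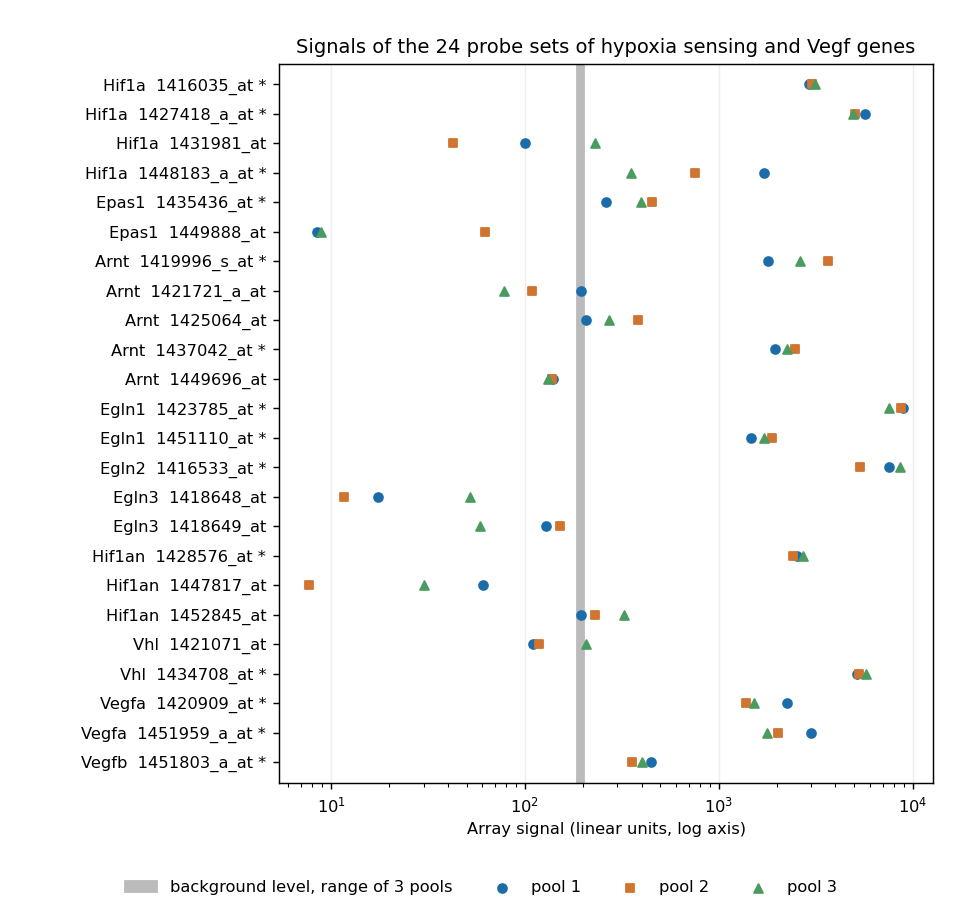
Array signal (linear units, log axis) of each of the 24 probe sets in pools 1 to 3, with the range of the background level over the pools as a grey band and an asterisk on each probe set above background. The 14 starred probe sets lie to the right of the band in all 3 pools, and both Egln3 probe sets lie to its left in all 3.

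Markers of cap mesenchyme were mostly above background, and so were those of stroma, where 54.4% of all named genes passed. Of 11 measured cap mesenchyme markers 10 were above background, among them Sall1 at 20670.2 ± 1825 and Crym at 23823 ± 2366 (SD, n = 3 each), while Tmem100 read 258, 116 and 186 and did not pass. Osr1, an early kidney progenitor gene, passed at 1122, 515 and 356 in pools 1, 2 and 3, though not against the 99th percentile of background. Stromal markers passed in 8 of 10 cases, with Foxd1, which defines cortical stroma, at 7565 ± 322 and Aldh1a2 at 11845 ± 3526. Ntn1 (83.9 ± 32.7) and Tbx18 (66.0 ± 67.4) did not pass. The stromal genes Pdgfra, Col1a1 and Lum lost their calls against the 99th percentile, and Lum also without pool 2. Passing members were 3 of 10 among endothelial, 3 of 6 among podocyte, 2 of 7 among ureteric bud, 0 of 7 among erythroid and 1 of 8 among macrophage markers. The ureteric bud markers that passed were the ligand genes Wnt11 (454, 282 and 599.6 in pools 1, 2 and 3) and Wnt7b (467, 326 and 554), neither of them against the 99th percentile, while Gata3 (4.66 ± 2.59) and Cdh1 (55.6 ± 23.9) did not pass. Laptm5 (462 ± 89.5) was the macrophage marker that passed, though not against the 99th percentile or without probes that can match several transcripts, while Cd68 (296 ± 144), C1qa (9.82 ± 1.42) and C1qc (4.96 ± 0.71) did not (SD, n = 3 each). Of the erythroid genes, Hba-a2 averaged 275 ± 106 and Epor 181 ± 52.7 (SD, n = 3 each). The globin gene Hbb-y read 6.44, 3.82 and 6.41 in the pools, and 14.2, 16.8 and 5.59 were the signals of Hba-a1. For the erythroid markers 0 of 9 probe sets also had an unadjusted p under 0.05 in limma, but leaving out pool 1 gave Hba-a2 a call. A share of other cells in the sort was not measured, and fewer cells of a type and less RNA per cell cannot be told apart in such pools.

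**Figure D2:**
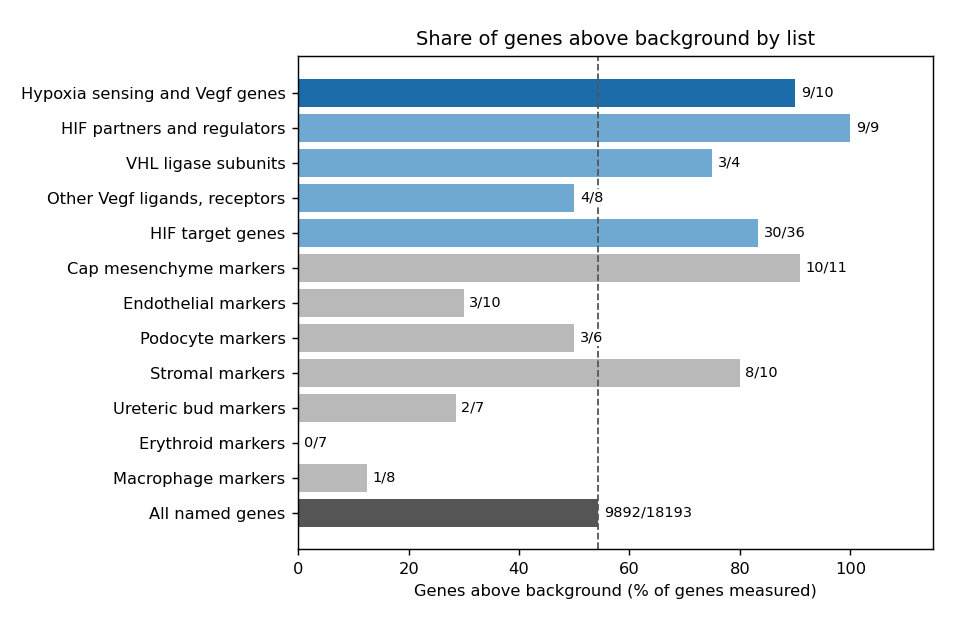
Percentage of measured genes above background in each gene list, with the count beside each bar and the share of all named genes (54.4%) as a dashed line. The hypoxia sensing and Vegf genes passed in 9 of 10 cases and HIF target genes in 30 of 36, while endothelial markers passed in 3 of 10.

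Both alpha subunit genes, Hif1a and Epas1, passed. Hif1a, the broadly expressed alpha subunit, was read by 4 probe sets, of which 3 passed. Its probe set 1427418_a_at read 5699, 5019 and 4918 in pools 1, 2 and 3. Probe set 1416035_at read 2919, 3013 and 3152. The 3 pools thus lay close together on both, with a highest signal 1.16 and 1.08 times the lowest. They were 24.8-fold and 14.5-fold over the background level, with adjusted p of 1.9e-08 and 3.8e-08 (limma, Benjamini-Hochberg). Folds over background in this text are on the log2(signal + 16) scale, which slightly understates those of signals above the level. With 1 added in place of 16, the log2 value over background was 4.735 in place of 4.632 for Hif1a. For Epas1 it was 0.888 in place of 0.841.

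Probe set 1448183_a_at of Hif1a gave another picture, with signals of 1713, 755 and 353 in pools 1, 2 and 3. Pool 1 stood highest and pool 3 lowest, a 4.85-fold spread in a gene whose other 2 passing probe sets hardly differed between pools. Its log2 range of 2.23 became 1.06 without pool 1 and 1.17 without pool 3. It was above background (3.75-fold, adjusted p = 0.0023, limma) but not against the 99th percentile of background (adjusted p = 0.062). The control probe sets for RNA integrity also differed between the arrays. The log2 ratio of 3' to 5' signal was 1.82, 3.28 and 3.18 for beta-actin in pools 1, 2 and 3, with 5' signals of 12417, 3851 and 2736. That ratio was 1.66, 2.09 and 2.65 for pyruvate carboxylase and 1.84, 3.15 and 2.57 for transferrin receptor. For Gapdh it was 4.36, 5.05 and 4.08. A part of RNA length in the spread of this probe set was not tested, and the positions of the probes in the transcript were not used here. The remaining Hif1a probe set, 1431981_at, read 99.7, 42.3 and 229 and did not pass.

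Epas1 encodes HIF2A, the alpha subunit best known from endothelium and from interstitial cells that make erythropoietin. Its probe set 1435436_at read 262, 450.0 and 398 in pools 1, 2 and 3, above the level in every pool but by a small margin. It was 1.79-fold over background (adjusted p = 0.016, limma). Leaving out pool 2 or pool 3 ended the call (adjusted p = 0.14 and 0.053, limma), as did a background level at the 99th percentile. Its other probe set, 1449888_at, read 8.47, 62.2 and 8.91 and lay under the level in all 3 pools. The endothelial markers, listed because Epas1 is an endothelial gene, summed to signals of 2029, 1934 and 2248 in pools 1, 2 and 3. The 3 that passed, Egfl7 at 591 ± 45.9, Eng at 424 ± 66.5 and Plvap at 380 ± 116 (SD, n = 3 each), were above background like Epas1. None of them passed against the 99th percentile, and Plvap also lost its call without pool 2 or pool 3. The other 7 of the 10 endothelial markers did not pass, and 6 of these lay under the level in all 3 pools. Tie1, a receptor gene of endothelium, read 2.54, 4.72 and 4.21, and Tek read 7.92, 29.1 and 60.2. The part of endothelial RNA in the Epas1 signal was not tested.

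Arnt, the shared beta subunit, was above background on 2 of 5 probe sets. Probe set 1437042_at read 1959, 2472 and 2239.8 in pools 1, 2 and 3, 10.6-fold over background (adjusted p = 1.6e-07, limma). Probe set 1419996_s_at read 1795, 3647 and 2637, 12.4-fold over background (adjusted p = 1.3e-06). Pool 2 was highest and pool 1 lowest on both. The suffix of 1419996_s_at marks probes that can match several transcripts, and Arnt kept its call without such probe sets. Of the others, 1425064_at read 207, 383 and 273 and did not pass (adjusted p = 0.15), although it lay over the level in all 3 pools. Probe sets 1421721_a_at and 1449696_at lay under the level in all 3 pools.

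The prolyl hydroxylase genes, which set the lifetime of the HIF alpha subunits, were divided. Egln1 encodes PHD2, the main oxygen sensor of most cells. Its probe set 1423785_at read 8967, 8669.5 and 7522 in pools 1, 2 and 3, and 1451110_at read 1471, 1888 and 1721. Every pool was far over the background level on both, which were 39.8-fold and 8.09-fold over it (adjusted p = 1.6e-08 and 4.3e-07, limma). Egln2, which encodes PHD1, read 7548, 5329 and 8638 on its single probe set and was 33.5-fold over background (adjusted p = 3.2e-08).

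Egln3 encodes PHD3, a hydroxylase whose gene, like Egln1, is itself switched on by HIF in many cells. Its probe set 1418649_at read 129, 151 and 58.4 in pools 1, 2 and 3, and 1418648_at read 17.4, 11.7 and 52.1. All 6 values were under the background level of their array. Neither probe set passed (adjusted p = 1 for both, limma; 0 of 2 at an unadjusted p under 0.05), and the gene was not called under any of the 13 alternative settings.

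Since the hydroxylase paralogs fell on both sides of the background level, the 250 bases before their transcription starts are shown (RefSeq, GRCm38.p6, printed 5′ to 3′ on the strand of the gene). Capitals mark ACGTG, a core of the hypoxia response element to which HIF binds. The windows are chr8:124949255-124949504 for Egln1, chr7:27166803-27167052 and chr7:27165729-27165978 for the upstream and the downstream of 2 annotated starts of Egln2, and chr12:54203875-54204124 for Egln3, all on the minus strand.
Egln1: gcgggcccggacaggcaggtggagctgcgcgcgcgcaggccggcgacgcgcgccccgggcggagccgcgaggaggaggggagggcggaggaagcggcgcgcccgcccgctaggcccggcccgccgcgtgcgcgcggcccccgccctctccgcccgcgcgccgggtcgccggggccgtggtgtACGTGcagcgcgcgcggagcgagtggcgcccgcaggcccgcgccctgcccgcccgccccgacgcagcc
Egln2, upstream start: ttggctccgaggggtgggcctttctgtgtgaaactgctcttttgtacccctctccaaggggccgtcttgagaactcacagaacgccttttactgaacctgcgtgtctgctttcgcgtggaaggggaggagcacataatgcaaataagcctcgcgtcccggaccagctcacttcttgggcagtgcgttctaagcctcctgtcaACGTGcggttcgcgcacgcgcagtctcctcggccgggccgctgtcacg
Egln2, downstream start: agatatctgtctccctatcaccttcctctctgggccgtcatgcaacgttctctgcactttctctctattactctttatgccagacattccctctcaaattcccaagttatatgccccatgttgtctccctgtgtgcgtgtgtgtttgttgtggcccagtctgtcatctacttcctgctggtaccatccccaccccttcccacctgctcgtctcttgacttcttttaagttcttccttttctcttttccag
Egln3: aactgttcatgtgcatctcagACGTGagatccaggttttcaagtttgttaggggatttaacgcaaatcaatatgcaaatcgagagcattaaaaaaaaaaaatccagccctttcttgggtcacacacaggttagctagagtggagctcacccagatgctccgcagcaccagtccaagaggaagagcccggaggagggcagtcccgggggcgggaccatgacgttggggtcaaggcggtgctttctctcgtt
ACGTG occurred 1 time in the Egln1 window, in that of the upstream Egln2 start and in that of Egln3, its first base lying 68, 48 and 229 bases before the start. It occurred 0 times in the window of the downstream Egln2 start. The other core, GCGTG, occurred 1 time in the Egln1 window, 3 times at the upstream and 1 time at the downstream Egln2 start, and 0 times in the window of Egln3. No match of one core overlapped a match of the other. On either strand, ACGTG was found in 16.6% and GCGTG in 28.2% of all 32851 windows of the same length, so a match is common and is given as a description. The G and C content was 86% in the Egln1 window, 59.2% at the upstream and 48% at the downstream Egln2 start, and 50.8% in that of Egln3. Windows were available for 9 of the 10 genes. ACGTG was present in at least 1 window for 5 of them, the other two being Hif1a and Vegfa. Vegfa also had 2 annotated starts, and 1 of its windows held neither core.

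Hif1an encodes FIH, the asparaginyl hydroxylase that keeps coactivators off HIF. Its probe set 1428576_at read 2520.2, 2427 and 2714 in pools 1, 2 and 3, with all pools close together. It was 12.2-fold over background (adjusted p = 5.5e-08, limma). Probe set 1452845_at read 195, 231 and 326 and did not pass (adjusted p = 0.33), and 1447817_at lay under the level in all 3 pools. Vhl, the substrate receptor that recognises hydroxylated HIF, read 5139.7, 5290.1 and 5717 on probe set 1434708_at. These values were again close together and 25.6-fold over background (adjusted p = 1.7e-08). Its other probe set, 1421071_at, read 110, 118 and 206 and did not pass.

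The partners of these proteins were above background with 1 exception, in a set where 54.4% of all named genes passed. Of the 4 subunits that VHL needs to form a ubiquitin ligase, 3 passed: the adaptor genes Eloc (12893 ± 2051) and Elob (9401 ± 1399) and the scaffold gene Cul2 (6535 ± 1177, SD, n = 3 each). The ring subunit gene Rbx1 read 147, 85.4 and 11.8 on its single probe set and did not pass. All 9 measured HIF partners and regulators were above background. Hif3a, another alpha subunit gene, read 1519, 1879 and 1477, and 3 of its 6 probe sets passed. Arnt2, another beta subunit gene, was at 2802 ± 287. The coactivator genes Crebbp and Ep300 were at 14729 ± 1433 and 714 ± 303, and Cited2, whose protein competes with HIF for these coactivators, was at 48639 ± 12824. Siah2, a ligase that degrades prolyl hydroxylases, read 461, 1078 and 1033 in pools 1, 2 and 3, with pool 1 lowest. Its relative Siah1a was at 11837 ± 2621, Os9 at 1686 ± 249 and the membrane-bound hydroxylase gene P4htm at 1024 ± 215 (SD, n = 3 each).

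Vegfa, the ligand that guides endothelial cells and a classic HIF target, was above background on both of its probe sets. Probe set 1451959_a_at read 3007, 2016 and 1777 in pools 1, 2 and 3, and 1420909_at read 2245, 1382 and 1516. Pool 1 was highest on both, at 1.69 and 1.62 times the lowest pool. The probe sets were 10.6-fold and 8.04-fold over background (adjusted p = 6.3e-07 and 1.1e-06, limma). Podocytes are a known source of Vegfa in the later kidney. Podocyte markers passed in 3 of 6 cases, near the 54.4% of all named genes. They summed to signals of 4351, 3993 and 4635 in pools 1, 2 and 3. Those that passed were Plce1 at 1621 ± 114 (7.77-fold over background), Npnt at 1576 ± 295 (7.48-fold) and Podxl at 695 ± 205 (3.28-fold, SD, n = 3 each), the last not against the 99th percentile. Nphs1, the slit diaphragm gene that defines podocytes, read 119, 110 and 102, and Clic5 read 168, 80.2 and 110, both under the level in all pools. The part of podocyte RNA in the Vegfa signal was not tested.

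Vegfb, a related ligand linked to fatty acid uptake by endothelium, read 448, 356 and 400 in pools 1, 2 and 3. It was over the level in every pool, but only 1.98-fold (adjusted p = 0.0032, limma), and was no longer called against the 99th percentile. Among the other ligands, Vegfc, known for lymphatic growth, was at 3937 ± 116 and Pgf, placental growth factor, at 1887 ± 441 (SD, n = 3 each), both above background. Vegfd read 177, 185 and 139 and did not pass.

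The receptors of these ligands were mostly not above background. Kdr, the main signalling receptor for Vegfa, read 197, 207 and 214 in pools 1, 2 and 3 on 1 probe set, at the level of background itself (adjusted p = 0.82, limma). Flt1, a receptor and decoy for Vegfa and Vegfb, read 57.6, 138 and 90.95, and 0 of its 4 probe sets passed, also at an unadjusted p under 0.05 in limma. Flt4, the receptor for Vegfc, read 425, 259 and 399.7 and passed on 1 of 2 probe sets (adjusted p = 0.015), but not when pool 1 or pool 3 was left out or against the 99th percentile. The coreceptor gene Nrp1, which many cells outside the endothelium express, was far over background at 17963 ± 3244 with 4 of 4 probe sets passing, whereas Nrp2 (182 ± 56.0) passed on 0 of 4, also at an unadjusted p under 0.05. In all, 4 of 8 other Vegf ligand and receptor genes passed, against 54.4% of named genes. The endothelial markers passed in 3 of 10 cases, as given beside Epas1.

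**Figure D3:**
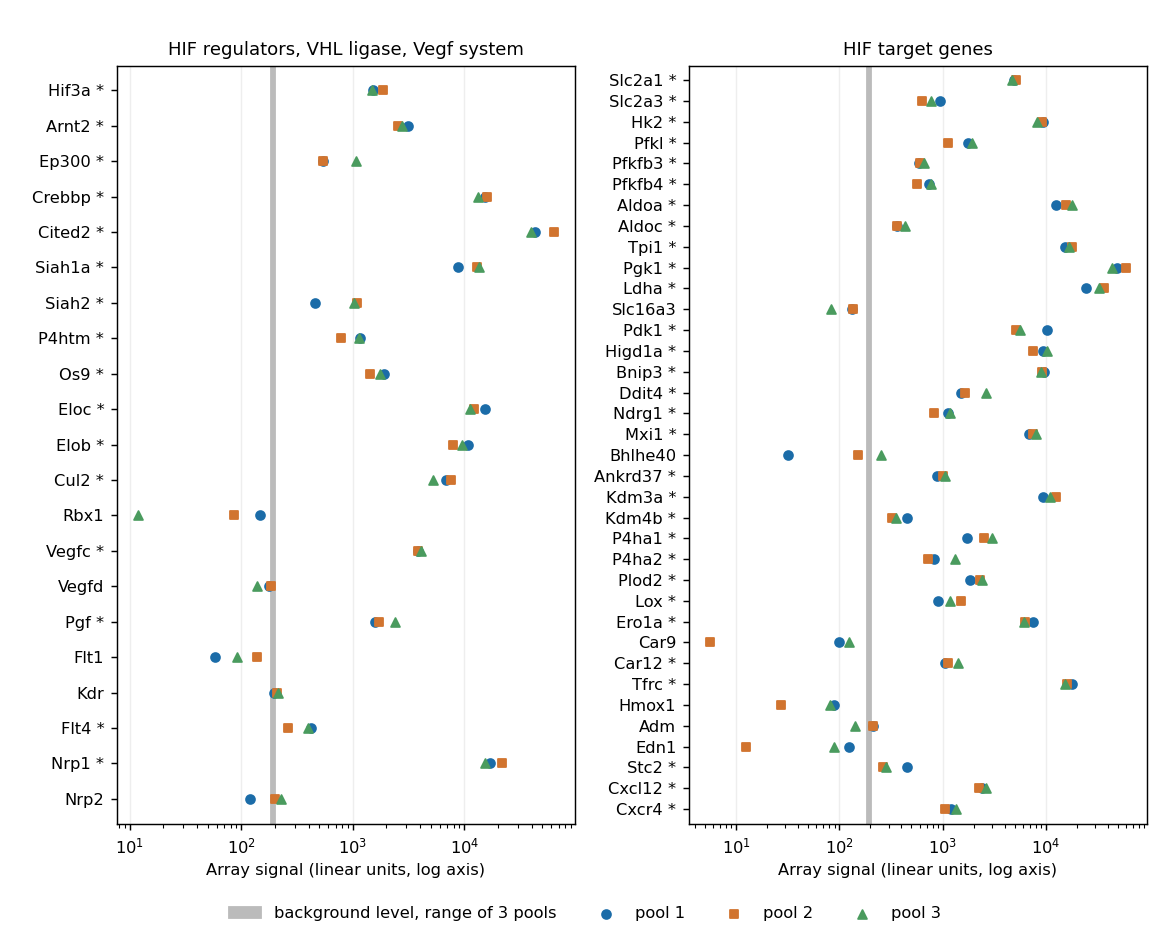
Array signal (linear units, log axis) in pools 1 to 3 of the probe set with the highest mean of each gene, for HIF regulators, VHL ligase subunits and the Vegf system (left) and HIF target genes (right). The grey band is the range of the background level over the pools, and asterisks mark genes above background. Kdr lies at the band and Flt1 to its left, and 30 of 36 HIF target genes are starred.

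Textbook targets of HIF other than the genes named at the start passed in 30 of 36 measured cases, against 54.4% of all named genes. Most of these genes are also transcribed without HIF, so the count describes their transcripts and not HIF activity. Among glucose metabolism genes 11 of 12 passed, including the glycolytic enzyme genes Pgk1 (51037 ± 7838), Tpi1 (16702 ± 1190.3), Aldoa (15359 ± 2604) and Hk2 (8975 ± 596, SD, n = 3 each). The lactate exporter gene Slc16a3 read 133, 135 and 82.5 and did not pass. Aldoa passed on 5 of 5 probe sets. With those ending in _x_at or _s_at dropped for their less specific probes, Aldoa had no call. This may only mean that no Aldoa probe set was left to test, so nothing is concluded from it. Among targets that act on mitochondria 3 of 3 passed, namely Pdk1, Bnip3 (9266 ± 401) and Higd1a (9055 ± 1379), and Tfrc, the transferrin receptor, was at 16447 ± 1472. The transcription factor gene Mxi1 was at 7460.0 ± 569. Car9, a carbonic anhydrase gene used as a marker of hypoxic tissue, read 99.6, 5.57 and 125 and did not pass, nor did Hmox1 (66.2 ± 33.6) or the endothelin gene Edn1 (75.2 ± 57.1). Bhlhe40 and Adm were the other two that did not pass. They fall outside the rule for named genes and were chosen after their values were seen.

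Immediate-early and heat shock genes respond to tissue dissociation, and some of them respond to hypoxia. They were above background in 10 of 12 cases, against 54.4% of all named genes. Egr1 was at 63547 ± 14223 and Fos at 35389 ± 6623 (SD, n = 3 each), while Junb (143 ± 37.6) and Atf3 (276 ± 179) did not pass. Their signals summed to 130900, 172268 and 160087 in pools 1, 2 and 3. The summed signal of the HIF targets was 207071, 227552 and 214255. Both sums were lowest in pool 1 and highest in pool 2, and so was the sum over all named genes. Counted gene by gene over the 30 HIF targets above background, pool 2 was highest in 6 and lowest in 12. Pool 3 was highest in 16, so the sum reflects mainly the genes of strongest signal. The sum in pool 2 was 1.32 times that in pool 1 for the immediate-early and heat shock genes together. It was 1.10 times for the HIF targets and 1.13 times for all named genes. The heat shock genes Hspa1a (3245, 2829 and 1602 in pools 1, 2 and 3) and Hspa1b (11489, 7087 and 3644) went the other way. Both were highest in pool 1 and lowest in pool 3. The part of dissociation in the levels of HIF targets was not tested.

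Between pools, 5 of the 9 hypoxia sensing and Vegf genes above background varied less than the median gene above background, and 4 varied more. Taking the probe set with the highest mean, the median log2 range over 3 pools was 0.32 for the 9 genes above background, against 0.44 for all named genes above background. Vhl had a log2 range of 0.15, Hif1an of 0.16, Hif1a of 0.21 and Egln1 of 0.25. Hif1a is counted there by its probe set with the highest mean, and not by the one with a 4.85-fold spread. Vegfb had a log2 range of 0.32, Egln2 of 0.70, Epas1 of 0.75 and Vegfa of 0.75. The range was larger than in 78.5% of named genes above background for Egln2, 81.8% for Epas1, 82.3% for Vegfa and 93.5% for Arnt. Only Arnt reached a 2-fold spread, at 1.02 on the log2 scale, which makes 1 of 9 genes against 6.87% of all named genes above background. Without pool 1 or without pool 2 the count was 0. Arnt is counted there by 1419996_s_at, whose probes can match several transcripts. Its other passing probe set, 1437042_at, had a log2 range of 0.33. Among probe sets above background, those at least 2-fold apart were 2 of 14, 1448183_a_at of Hif1a and 1419996_s_at of Arnt, against 12.6% of all probe sets above background. With 1 array for each pool these spreads have no test.

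**Figure D4:**
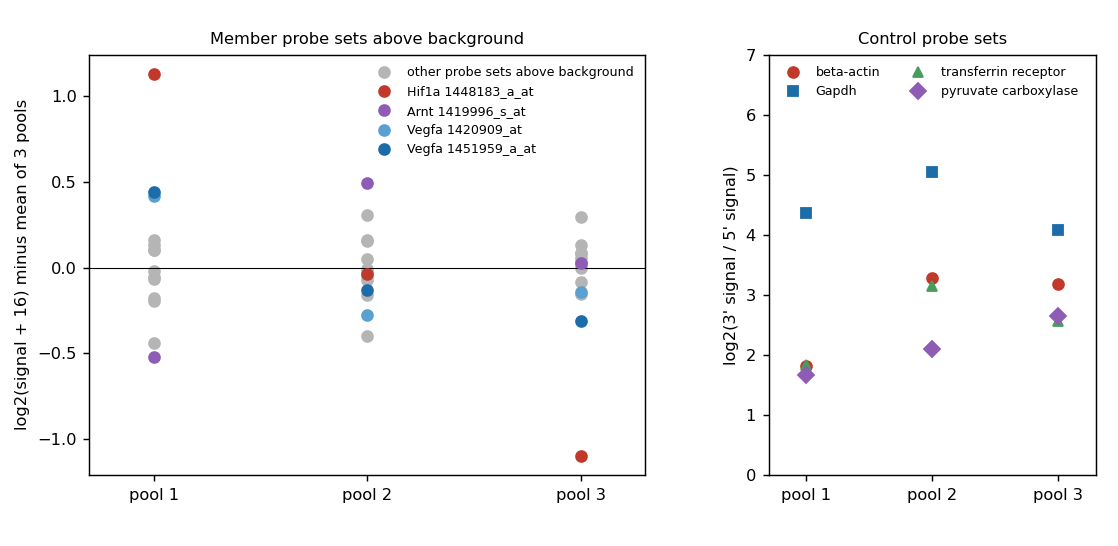
Left, log2(signal + 16) of each of the 14 probe sets above background minus its mean over the 3 pools. Right, log2 ratio of 3' to 5' signal of 4 control transcripts in the same pools. Probe set 1448183_a_at of Hif1a lies 1.13 over its mean in pool 1 and at -1.10 in pool 3, and both Vegfa probe sets are highest in pool 1. The ratio is lowest in pool 1 for beta-actin (1.82), transferrin receptor (1.84) and pyruvate carboxylase (1.66), but in pool 3 for Gapdh (4.08).

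The pattern of Vegfa over the pools was set beside those of the 30 HIF targets above background. By Euclidean distance of centred log2 signals over 3 arrays, the nearest were Stc2 (0.19), Pdk1 (0.31) and Kdm4b (0.31). Stc2, a secreted glycoprotein gene, read 453, 265 and 282 in pools 1, 2 and 3, and Pdk1, a kinase gene that restrains mitochondrial pyruvate use, read 10231, 5110.4 and 5626. Kdm4b, a histone demethylase gene, read 448, 324 and 355. Pool 1 was highest in all 3, which follows from how they were chosen. Over the 30 targets, pool 1 was highest in 8 and lowest in 12. Each likeness rests on 3 arrays, and Stc2 was no longer called when pool 1 or pool 2 was left out, with a pseudocount of 64 or against the 99th percentile, where Kdm4b was not called either.

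Probe sets of one gene disagreed for 5 of the 10 genes, Hif1a, Epas1, Arnt, Hif1an and Vhl, each with some probe sets that passed and some that did not. This was 5 of the 7 genes above background that had several probe sets, against 64.4% of such genes among all named genes. Egln1 and Vegfa were the 2 with every probe set above background.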

How the data were processed

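Gene expression was measured on 3 mouse Affymetrix arrays of sorted cap mesenchyme, a single group with replicate numbers from the titles. Per the labels, cells were released by trypsin (5 minutes, 37 °C) and passed a mesh of 70 micron before sorting. The deposited values are linear array intensities, 1 per probe set, made with GCOS per the submitters' processing notes; version and settings are not given in the sources used here. The mean signal, trimmed by 2% at each end, was 1500 on each array, so scaling removed differences in that trimmed mean. The untrimmed sum over all named genes still differed, and in pool 2 was 1.13 times that in pool 1. Median signals were 222, 197 and 184. Precision is limited by the number of arrays.

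Of the probe sets, 34945 had 1 gene symbol in the platform annotation, 932 several and 9160 none, and 64 were controls; 34741 matched RefSeq by gene identifier. From log2(signal + 16) the 95th percentile of background was subtracted, taken over probe sets of receptor, hair and defence genes (44 olfactory, 36 vomeronasal and 3 taste receptor, 43 keratin-associated and 24 defensin). The mean was tested against 0 with limma 3.58.1 in R 4.3.3 (intercept, eBayes with trend, one-sided, Benjamini-Hochberg over 45037 probe sets). The fit was first run on simulated arrays with the same spread for every probe set. Real probe sets differ in spread, so that run does not vouch for calls near the background level. A gene passed if any of its probe sets did, and its values are those of the probe set with the highest mean. Alternatives changed the pseudocount, background percentile, normalization, trend, filters, gene rule and arrays. Named were all genes of the small pathway lists. From the HIF targets, those with the 8 largest and 4 smallest moderated statistics were named, with any called and 2-fold apart between pools and the 3 nearest to Vegfa, and from each marker list the 2 largest and 2 smallest. Plvap, Podxl, Hspa1a, Hspa1b, Pdgfra, Col1a1 and Lum fall outside this rule and were named after their values were seen. Of the listed genes, Siah1b, Eno1, Bnip3l and Epo were among those not analysed here, and 1 item is not reported here. Members and lists were chosen with earlier results of these data known. Tables were made with pandas 2.3.3 in Python 3.11.15 and plots with matplotlib 3.10.9.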

Additional observations from a re-analysis of the deposited data

How the results depend on the processing

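No paired analysis was possible because the 3 arrays form a single group. The counts of genes and probe sets above background stayed within 1.5 times of those reported under each change of pseudocount, background percentile, normalization, trend and filter, and without any single pool. Without the trend of eBayes, the adjusted p in limma was 1.9e-05 for Hif1a and 1.7e-05 for Egln1, in place of 1.9e-08 and 1.6e-08. The gene count was 7 at the 99th percentile of background and 8 or 9 of 10 without a pool. At that percentile Epas1 lay at -0.29 and Vegfb at -0.15 on the log2 scale relative to the level, both reversed from above it. If every probe set of a gene had to pass, 4 of the 10 genes, 29 of 57 pathway genes and 5719 of all named genes were called, in place of 9, 46 and 9892, since more tests had to pass. The count of genes at least 2-fold apart between pools, 1 in the text, was 0 at a pseudocount of 64 and between 0 and 1 without a pool, a setting chosen after seeing the data. The log2 range of the most variable Hif1a probe set was 2.23 and lay between 1.06 and 2.23 without a pool. Signals near the background level, as for Epas1, Vegfb and Flt4, are the limit of these arrays.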
